A study of Mus musculus with 24 samples.

Results

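Described here are 9 mouse genes that serve as neural stem cell markers or belong to the Sox family: Sox1, Sox2, Sox9, Nes, Vim, Msi1, Fabp7, Prom1 and Hmga2. They were chosen by exact gene symbol, and all 9 were found among the 12394 genes measured on 24 Affymetrix arrays. Values are log2 of the deposited intensity plus 16, so a step of 1 is a doubling where the signal is well above that offset. For a gene with several probe sets, that of highest mean intensity over the 24 arrays stands for it.

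The arrays compare cultured medulloblastoma lines with primary medulloblastomas and normal cerebellum, and with the lines' own growth factor treated or RAS transformed derivatives. RAS cells, labelled as RAS transformed, have 7 arrays, of which SMB21 gave 3 and each of the other lines 2; the labels do not say which RAS gene was introduced or how. GF cells, with 1 array per line, had grown for more than 3 weeks in 20 ng/mL EGF and 20 ng/mL bFGF together with heparin. Parental cells have 8 arrays, 4 from SMB21 and 2 from each other line. All 3 lines, and so all 18 culture arrays, carry the Ptch1 mutation: they come from spontaneous tumors of Ptch+/- mice and are kept as neurospheres without serum, in DMEM/F12 with B27. Primary MB (n = 3) are medulloblastomas of adult Ptch1 mutant mice. Normal wild type cerebellum is represented by 1 adult array and by 2 arrays of postnatal day 6 (P6), when granule neuron precursors still divide. P6 replicate 2 was placed by its title, since its age label differs. Replicates are called biological, but their cultures or animals are not named, so p-values measure the spread between these samples, which may be technical.

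Neural stem cells of the developing brain are recognised by a set of proteins with different tasks. Sox1 and Sox2 are transcription factors that hold neural progenitors in an undifferentiated state, and Sox9 is a related factor needed for glial fate. In the cerebellum, Sox2, Sox9, Fabp7 and Vim also mark Bergmann glia and astrocytes, while dividing granule neuron precursors, the cells from which Hedgehog medulloblastoma arises, are marked by Atoh1.

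Several arrays stood apart from others of the same line. On SMB21 parental replicate 1 and SMB21 GF replicate 1, the Y-linked gene Kdm5d read 9.14 and 8.86, whereas it lay between 4.90 and 5.02 on SMB21 RAS replicates 1 to 3 and SMB21 parental replicates 2 to 4. In SMB56, Kdm5d was high on GF replicate 1 (8.26) and on both parental arrays (8.73 and 8.25) but at 4.88 and 5.13 on the RAS arrays. Eif2s3y, also Y-linked, separated the SMB56 parental arrays themselves, at 4.93 on replicate 1 and 9.23 on replicate 2. All SMB55 arrays had Kdm5d between 5.05 and 5.16. Over 12394 genes, SMB56 parental replicate 2 correlated at 0.980 with SMB55 parental replicate 2 and at 0.944 with SMB56 parental replicate 1. SMB21 parental replicate 1 correlated at 0.969 to 0.971 with the other SMB21 parental arrays, which correlated at 0.992 to 0.996 among themselves. The part of these differences in the results below was not tested. Member counts and some values of GF and RAS cells are therefore also given with parental replicate 1 of each line set apart. That choice was made after seeing the data. It keeps SMB56 parental replicate 2, on which Kdm5d (8.25) differs from the RAS arrays of that line (4.88 and 5.13). Array medians lay between 7.68 and 8.03. Atoh1 read 5.40 to 7.63 on RAS arrays, 6.28, 11.19 and 6.47 on the GF arrays of SMB21, SMB55 and SMB56, 11.79 to 12.97 on parental arrays, 11.25 to 12.71 in primary MB, 6.58 in adult cerebellum and 10.33 and 10.23 in P6 cerebellum.

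**Figure D1:**
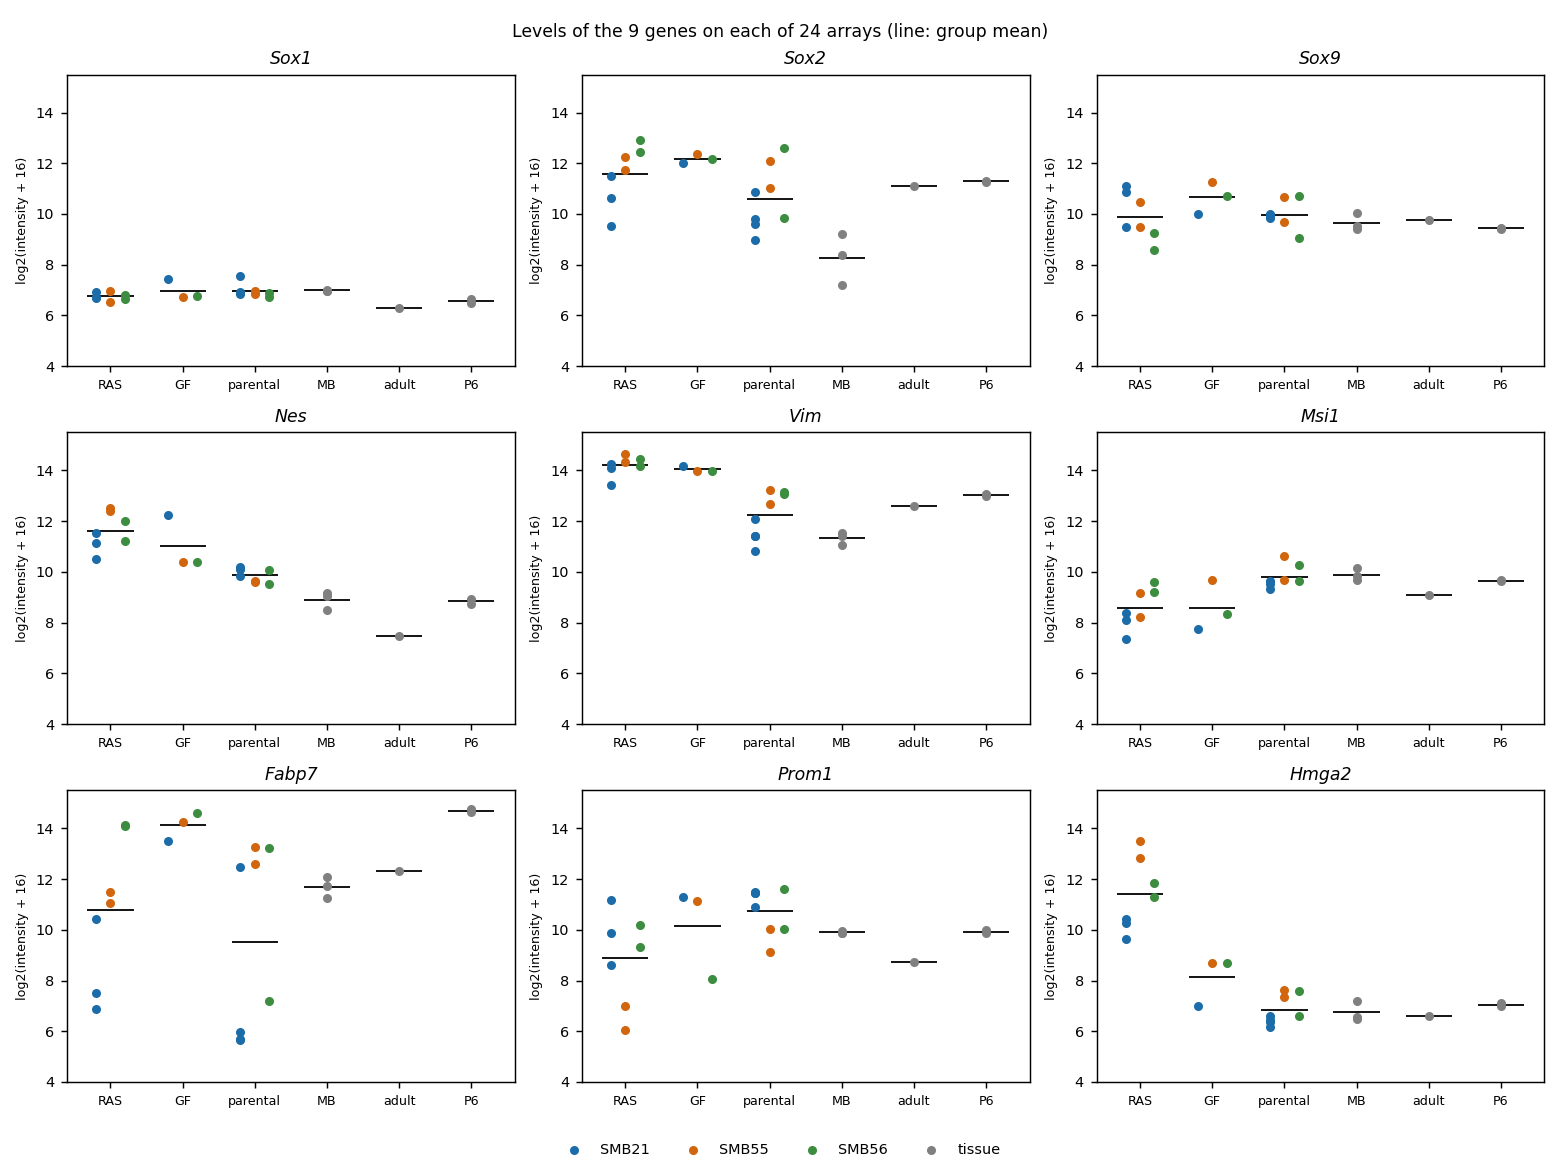
Levels of the 9 genes, as log2(intensity + 16), on each array, by group along the horizontal axis; points are arrays, coloured by line, and horizontal lines are group means. Hmga2 on the 7 RAS arrays (9.64 to 13.51) lies above its level on every other array, and Fabp7 spreads from 5.66 to 13.28 among parental arrays.

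RAS against parental cells gave the most calls of any comparison. There, 5 of the 9 members (55.6%) passed an adjusted p under 0.05, 3 higher (Hmga2, Vim and Nes) and 2 lower (Msi1 and Prom1), in a comparison where 32.1% of all genes were called. The median difference of the 9 was 0.86, against -0.05 for all genes. With parental replicate 1 of each line set apart, 4 of 9 were called against the remaining parental arrays (23.5% of all genes), and Prom1 no longer passed. With 1 mean per line and treatment, which counts lines rather than arrays, Hmga2 alone passed (adjusted p = 0.0199). GF against parental cells called 2 of the 9 (8.95% of all genes), Vim higher and Msi1 lower. With the replicate number as a block, these 2 passed again (adjusted p of 0.0391 and 0.0407). The calls over all genes then fell to 243, against 1109 without the block. The labels do not say that a number marks a shared culture. Against parental replicate 1 alone, GF cells had 1 call, Msi1 (5.07% of all genes). RAS against GF cells gave 1 call, Hmga2 (11.2% of all genes). The comparisons of RAS and of GF with parental cells share the parental arrays.

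Between tissues and parental lines, 2 members (22.2%) were called in each comparison. Primary MB against P6 cerebellum gave 2 calls, Sox2 lower and Sox1 higher, in a comparison with 11.0% of all genes called. Parental SMB against P6 cerebellum gave 2, Nes and Sox1, both higher, with 25.6% of all genes called. Parental SMB against primary MB gave 2, Sox2 and Nes, both higher, with 20.6% called. With 9 members, 1 gene is 11.1% of them.

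**Figure D2:**
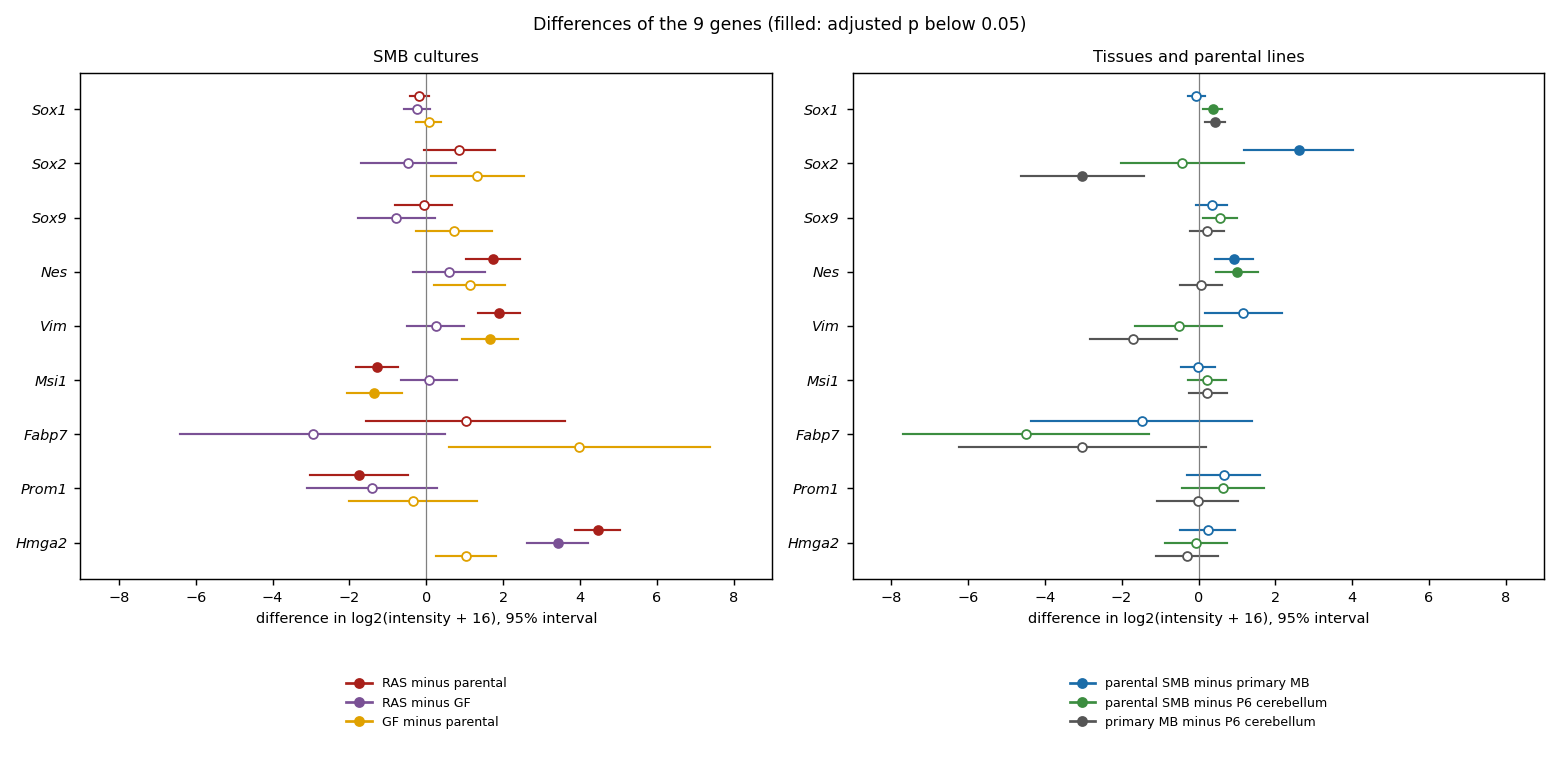
Differences of the 9 genes on the log2(intensity + 16) scale (horizontal axis) with 95% confidence intervals, for the cultures (left panel) and for tissues and parental lines (right panel); filled points passed an adjusted p under 0.05. Among filled points, Hmga2 in RAS minus parental stands farthest from 0 at 4.46, and the Fabp7 intervals are the widest.

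Hmga2 had the largest difference among those called in the 6 comparisons plotted. It encodes a high mobility group protein that bends AT-rich DNA, is made in embryonic and young stem cells and is held down in differentiated cells by let-7 microRNAs. On RAS arrays it read 9.64, 10.27 and 10.41 in SMB21, 12.84 and 13.51 in SMB55, and 11.84 and 11.31 in SMB56. On GF arrays it read 7.01, 8.68 and 8.71 in SMB21, SMB55 and SMB56. Parental arrays read 6.16, 6.36, 6.60 and 6.44 in SMB21, 7.34 and 7.61 in SMB55, and 6.59 and 7.59 in SMB56. Each RAS array lay above all GF and all parental arrays. The rise in RAS over parental cells was 4.46 (SE 0.28, 21.9-fold, adjusted p = 1.79e-07), and over GF cells 3.42 (SE 0.37, 10.7-fold, adjusted p = 2.42e-04). Against the parental arrays other than replicate 1 the rise was 4.20 (SE 0.30, adjusted p = 2.90e-06). GF minus parental was 1.04 (SE 0.37, adjusted p = 0.0957), which did not pass, although all 3 GF arrays lay above the parental arrays of their own line. The other 2 probe sets of Hmga2 gave 1.36 and 1.80 for that difference, with adjusted p of 0.0288 and 0.0149. Outside RAS and GF cells the gene stayed low, at 6.58, 7.20 and 6.47 in primary MB, 6.62 in adult cerebellum and 7.01 and 7.10 in P6 cerebellum. Primary MB differed from P6 cerebellum by -0.30 (SE 0.34, adjusted p = 0.596) and parental SMB by -0.07 (SE 0.34, adjusted p = 0.904).

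Nes encodes nestin, the intermediate filament protein of dividing neural progenitors, and Vim encodes vimentin, which forms filaments with nestin in progenitors, glia and mesenchymal cells. Nes read 11.53, 10.49 and 11.13 on the SMB21 RAS arrays, 12.54 and 12.42 in SMB55, and 12.01 and 11.21 in SMB56. It read 10.11, 10.20, 10.13 and 9.84 on the SMB21 parental arrays, 9.60 and 9.63 in SMB55, and 10.09 and 9.54 in SMB56. No RAS array overlapped with the parental arrays. The rise was 1.73 (SE 0.33, 3.31-fold, adjusted p = 0.00113), and 1.76 (SE 0.39, adjusted p = 0.00542) against the parental arrays other than replicate 1. The other 2 Nes probe sets gave smaller values, 1.09 (adjusted p = 0.0276) and 1.05 (adjusted p = 0.113). On GF arrays Nes read 12.24, 10.39 and 10.41 in SMB21, SMB55 and SMB56, each above the parental arrays of its line, and the difference of 1.13 (SE 0.43, adjusted p = 0.124) did not pass. Between RAS and GF cells the probe sets disagreed in sign, at 0.60 for the one used here and -0.61 and -0.60 for the others, and none passed.

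Nes also separated cultures from tissue. Parental arrays ran from 9.54 to 10.20, primary MB read 9.05, 8.50 and 9.17, adult cerebellum 7.46, and P6 cerebellum 8.95 and 8.72. Every parental array thus lay above every tumor and cerebellum array. Parental SMB exceeded primary MB by 0.93 (SE 0.20, 1.90-fold, adjusted p = 0.0218) and P6 cerebellum by 1.00 (SE 0.23, 2.00-fold, adjusted p = 0.0206). All 3 Nes probe sets passed in both comparisons. The call against P6 cerebellum was lost without P6 replicate 1 or 2 (adjusted p of 0.0862 and 0.138), and that against primary MB without SMB21 or SMB56 (0.0512 and 0.0600). Primary MB and P6 cerebellum differed by 0.07 (95% interval -0.47 to 0.61, adjusted p = 0.858).

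Vim read 14.11, 13.42 and 14.24 on SMB21 RAS arrays, 14.33 and 14.66 in SMB55, and 14.47 and 14.18 in SMB56. GF arrays read 14.19, 13.97 and 13.97 in SMB21, SMB55 and SMB56. Parental arrays read 12.10, 11.40, 11.41 and 10.84 in SMB21, 12.68 and 13.25 in SMB55, and 13.07 and 13.16 in SMB56. RAS and GF arrays overlapped with each other and lay above all parental arrays. Vim rose by 1.90 in RAS cells (SE 0.26, 3.73-fold, adjusted p = 8.74e-05) and by 1.66 in GF cells (SE 0.34, 3.15-fold, adjusted p = 0.00800), and RAS and GF cells differed by 0.24 (95% interval -0.49 to 0.98, adjusted p = 0.678). Against parental replicate 1 alone the GF difference was 1.43 (SE 0.41, adjusted p = 0.0579). Without SMB21 GF replicate 1 it was 1.19 (adjusted p = 0.0826), and without the line SMB21 it was 0.93 (adjusted p = 0.0635). Vim was the 1 member of 9 called for a difference between the parental lines (adjusted p = 0.0160), in a test that called 5.08% of all genes; without SMB21 parental replicate 3 the p was 0.0554. SMB55 exceeded SMB21 by 1.53 (SE 0.32, adjusted p = 0.0193) and SMB56 exceeded SMB21 by 1.68 (SE 0.32, adjusted p = 0.0402). Primary MB had the lowest group mean, with 11.07, 11.52 and 11.42 against 13.07 and 12.99 in P6 cerebellum and 12.59 in adult cerebellum. Those arrays did not overlap, but the difference between primary MB and P6 cerebellum of -1.70 (SE 0.48, adjusted p = 0.0670) did not pass. It passed in 3 of 21 alternatives, with only these groups fitted (adjusted p = 0.00473), with a variance prior that follows intensity (0.0474) and without SMB21 (0.00193).

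The promoters of the 3 genes that rose in RAS cells are shown because all RAS arrays of every line were above the parental arrays of that line for each of them. They are RefSeq sequences of GRCm38.p6, from 250 bases before to 50 bases after the gene start, on the gene's strand, for Hmga2 at chr10:120476420-120476719 (minus strand), Nes at chr3:87970843-87971142 (plus strand) and Vim at chr2:13574061-13574360 (plus strand). Capitals mark matches on either strand to the motifs searched, which are an AP-1 site, a GC box, a TATA box, a CCAAT box and a Sox core; no match overlapped another.
Hmga2: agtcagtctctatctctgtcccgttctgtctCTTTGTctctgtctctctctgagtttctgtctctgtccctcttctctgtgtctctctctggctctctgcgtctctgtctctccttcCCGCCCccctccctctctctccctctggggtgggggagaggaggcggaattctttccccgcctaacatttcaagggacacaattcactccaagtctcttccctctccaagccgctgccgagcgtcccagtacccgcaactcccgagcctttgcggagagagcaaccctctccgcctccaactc
Nes: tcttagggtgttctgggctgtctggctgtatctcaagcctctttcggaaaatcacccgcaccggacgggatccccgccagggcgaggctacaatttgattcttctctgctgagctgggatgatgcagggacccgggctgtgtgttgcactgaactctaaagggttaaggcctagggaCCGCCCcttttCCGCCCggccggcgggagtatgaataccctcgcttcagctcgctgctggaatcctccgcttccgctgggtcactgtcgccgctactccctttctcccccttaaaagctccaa
Vim: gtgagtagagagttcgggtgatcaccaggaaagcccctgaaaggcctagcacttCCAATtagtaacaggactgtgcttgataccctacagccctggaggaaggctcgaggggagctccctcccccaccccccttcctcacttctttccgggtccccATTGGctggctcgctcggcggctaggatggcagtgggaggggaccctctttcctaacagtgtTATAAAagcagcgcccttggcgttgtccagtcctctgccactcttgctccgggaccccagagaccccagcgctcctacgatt
The Hmga2 window held the GC box, spelled GGGCGG, on the opposite strand at 133 bases before the gene start. It also held the Sox core, spelled ACAAAG and likewise on the opposite strand, at 219 bases before the start. Nes held 2 GC boxes on the opposite strand, at 73 and 62 bases before it. Vim held the TATA box, spelled TATAAA, at 32 bases before its start. It held the CCAAT box, searched as those letters, at 196 and, on the opposite strand, at 94 bases before the start. The AP-1 site, searched as TGANTCA, was in none of the 3 windows. Of 32851 promoters of that length, 35.7% held the GC box, 18.7% the Sox core, 13.6% the TATA box, 37.4% the CCAAT box and 7.81% the AP-1 site. The base composition was 57.7% G or C for Hmga2, 58.7% for Nes and 59.3% for Vim, against a median of 52.7%. No motif was shared by the 3 windows, and a match is only a description of the letters.

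Msi1 and Prom1 were lower in RAS cells. Msi1 encodes musashi, an RNA-binding protein that sustains Notch signalling in neural stem cells by repressing translation of the inhibitor Numb. It read 8.39, 7.36 and 8.09 on SMB21 RAS arrays, 9.17 and 8.21 in SMB55, and 9.20 and 9.59 in SMB56. GF arrays read 7.74, 9.68 and 8.34 in SMB21, SMB55 and SMB56. Parental arrays read 9.63, 9.33, 9.51 and 9.62 in SMB21, 10.61 and 9.70 in SMB55, and 10.27 and 9.66 in SMB56. Within each line all RAS and all GF arrays lay below all parental arrays, while across lines the ranges overlapped. The fall was 1.28 in RAS cells (difference -1.28, SE 0.26, adjusted p = 0.00168) and 1.35 in GF cells (difference -1.35, SE 0.34, adjusted p = 0.0231). Setting parental replicate 1 apart kept both calls, at -1.13 (adjusted p = 0.0131) for RAS cells against the other parental arrays and -1.59 (adjusted p = 0.0381) for GF cells against replicate 1. A second Msi1 probe set, with values between 5.97 and 6.85 on all arrays, gave -0.23 for RAS (adjusted p = 0.169) and 0.02 for GF cells (adjusted p = 0.970). The GF call was lost without SMB21 GF replicate 1 (-1.18, adjusted p = 0.131) or SMB56 GF replicate 1 (-1.05, adjusted p = 0.166), and the RAS call without the line SMB21 (-1.02, adjusted p = 0.118). In tissue Msi1 read 9.69, 10.15 and 9.84 in primary MB, 9.07 in adult cerebellum and 9.68 and 9.64 in P6 cerebellum.

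Prom1 encodes prominin, known as CD133, a cholesterol-binding membrane protein used to sort stem cells and brain tumor cells. It read 8.63, 11.16 and 9.88 on SMB21 RAS arrays, 6.05 and 6.99 in SMB55, and 9.33 and 10.21 in SMB56. Parental arrays read 10.89, 11.48, 11.46 and 11.44 in SMB21, 10.02 and 9.12 in SMB55, and 11.60 and 10.02 in SMB56. The groups were apart in SMB55 and overlapped in SMB21 and SMB56. The fall over all lines was 1.76 (difference -1.76, SE 0.60, adjusted p = 0.0350), and against the parental arrays other than replicate 1 the difference of -1.55 had an adjusted p of 0.123. The call was also lost when 1 array was left out, for SMB21 RAS replicate 1, SMB55 RAS replicates 1 and 2, SMB21 parental replicates 2, 3 and 4, SMB55 parental replicate 1 and SMB56 parental replicate 1 (adjusted p of 0.0513 to 0.0808). In GF cells Prom1 read 11.28, 11.13 and 8.08 in SMB21, SMB55 and SMB56, a difference from parental cells of -0.35 (SE 0.78, adjusted p = 0.862). The SMB55 GF array lay above its parental arrays and the SMB56 GF array below its own. Primary MB, at 9.87, 9.97 and 9.87, matched P6 cerebellum, at 9.87 and 9.98, to within 0.02 in the mean (95% interval -1.08 to 1.04), and adult cerebellum read 8.73.

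The calls for Sox factors were in comparisons of tissues and parental lines. Sox2 read 8.39, 9.20 and 7.19 in primary MB, against 11.28 and 11.29 in P6 cerebellum, and 11.11 in adult cerebellum. All 3 tumors lay below all cerebella. The fall was 3.02 (difference -3.02, SE 0.67, 8.13-fold lower, adjusted p = 0.0352). In bulk tissue, fewer cells of a type and less RNA per cell cannot be told apart. Markers of astrocytes and Bergmann glia were also lower there, with 6 of 11 lower and 1 higher (6.68% and 4.30% of all genes) and a summed intensity of 3870 to 5060 in primary MB and 37100 to 40900 in P6 cerebellum; Aqp4, a water channel of astrocytes, read 7.83, 7.73 and 6.05, against 12.67 and 12.90. Among the members named above as markers of these cells, Sox9 was not lower in primary MB (difference 0.22, SE 0.19, adjusted p = 0.483). Vim and Fabp7 were lower by array values, with differences of -1.70 and -3.02 that did not pass. The part of these cells in the Sox2 result was not tested. The call was lost when any 1 P6 array was left out (adjusted p of 0.180 and 0.205) or primary MB replicate 1 or 3 (0.0701 and 0.0706) or SMB56 (0.0530).

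Parental SMB cells had more Sox2 RNA than the tumors, with 8.98 at the lowest, 10.36 at the median and 12.61 at the highest. SMB21 parental replicate 4 was the 1 parental array below the highest tumor. The rise over primary MB was 2.61 (SE 0.60, 6.08-fold, adjusted p = 0.0256), and the difference from P6 cerebellum was -0.42 (SE 0.67, adjusted p = 0.686). With line means that leave out parental replicate 1 the rise was 3.13 (adjusted p = 0.0457), and with replicate 1 alone 2.32 (adjusted p = 0.0288). Leaving out SMB55 or SMB56 lost the call (adjusted p of 0.0614 and 0.0787), as did leaving out any 1 P6 array (0.0545 each) or primary MB replicate 1 or 3 (0.0621 and 0.0600). Of 11 astrocyte markers 2 were higher and 2 lower there, near the shares of all genes (12.4% higher and 8.19% lower), and their sum reached 24200 on SMB56 parental replicate 2. In RAS cells Sox2 ran from 9.54 through a median of 11.72 to 12.91, and in GF cells it read 12.02, 12.35 and 12.15 in SMB21, SMB55 and SMB56. The differences from parental cells were 0.86 (SE 0.43, adjusted p = 0.142) for RAS and 1.33 (SE 0.57, adjusted p = 0.166) for GF cells, and neither passed.

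Sox9 and Sox1 had smaller differences between groups. Sox9 ran from 8.58 to 11.10 with a median of 9.48 on RAS arrays, read 10.01, 11.28 and 10.69 on GF arrays of SMB21, SMB55 and SMB56, and ran from 9.05 to 10.72 with a median of 9.93 on parental arrays. In tissue Sox9 read 9.42, 9.52 and 10.02 in primary MB, 9.78 in adult cerebellum and 9.45 and 9.42 in P6 cerebellum. None of its 6 comparisons passed with the probe set used here. The second Sox9 probe set gave parental SMB over P6 cerebellum as 1.21 (adjusted p = 0.0103), against 0.56 (adjusted p = 0.0694), and parental SMB over primary MB as 1.04 (adjusted p = 0.0148), against 0.34 (adjusted p = 0.198). Sox1 read between 6.29 and 7.54 on all 24 arrays, below every array's median. In primary MB it read 6.98, 6.95 and 7.02, against 6.47 and 6.64 in P6 cerebellum, a rise of 0.43 (SE 0.11, adjusted p = 0.0476). Parental SMB exceeded P6 cerebellum by 0.37 (SE 0.11, adjusted p = 0.0418). Both calls lay close to the threshold and were lost under 12 of 19 alternatives for primary MB and 13 of 20 for parental SMB, with adjusted p up to 0.267 and 0.247.

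Fabp7 had the widest spread of the members, 9.10 between its lowest and highest array. It encodes the brain fatty acid binding protein of radial glia and Bergmann glia. P6 cerebellum read 14.75 and 14.64, adult cerebellum 12.33, and primary MB 11.71, 12.07 and 11.26. All tumors lay below all cerebella, yet the difference of -3.02 from P6 cerebellum (SE 1.35, adjusted p = 0.198) did not pass in a fit whose spread includes the parental lines. It passed in 2 of 19 alternatives, with only these groups fitted (-3.02, adjusted p = 0.00337) and with the replicate block (-2.80, adjusted p = 0.0260). Parental arrays read 12.46, 5.99, 5.71 and 5.66 in SMB21, 12.58 and 13.28 in SMB55, and 7.21 and 13.24 in SMB56. Arrays of 1 line thus fell at opposite ends of the range in SMB21 and SMB56. Parental SMB minus P6 cerebellum was -4.50 (SE 1.35), with an adjusted p just above the threshold that did not pass. It passed in 7 of 20 alternatives, with adjusted p between 0.00624 (without SMB55, -5.86) and 0.0467 (pseudocount of 1, -4.64).

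GF arrays of SMB21, SMB55 and SMB56 read 13.52, 14.24 and 14.60 for Fabp7, above every parental array. RAS arrays read 10.41, 7.51 and 6.89 in SMB21, 11.06 and 11.51 in SMB55, and 14.13 and 14.09 in SMB56. Relative to their own parental arrays, the RAS arrays were all lower in SMB55, all higher in SMB56, and within the parental range in SMB21. The SMB21 RAS arrays lay above parental replicates 2 to 4 (5.66 to 5.99) and below replicate 1 (12.46). Those of SMB56 were nearer to parental replicate 2 (13.24) than to replicate 1 (7.21). GF minus parental was 3.98 (SE 1.59, adjusted p = 0.139), with 3.37 (adjusted p = 0.366) against parental replicate 1 alone. RAS minus parental was 1.02 (SE 1.21, adjusted p = 0.550), with 1.40 (adjusted p = 0.505) against the parental arrays other than replicate 1. RAS minus GF was -2.96 (SE 1.62, adjusted p = 0.241). None of these passed. Without SMB21 parental replicate 1, the GF difference was 4.60 (adjusted p = 0.0474), past the threshold.

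Fabp7 and Sox2 were low on the same culture arrays. The 6 lowest for both genes were SMB21 RAS replicates 2 and 3, SMB21 parental replicates 2, 3 and 4, and SMB56 parental replicate 1. In SMB56, markers of the oligodendrocyte lineage moved with them, with a summed intensity of 1670 on parental replicate 1 and 21300 on parental replicate 2, and with Olig2 at 7.03 and 11.12. Astrocyte marker sums on these 2 arrays were 3470 and 24200. On SMB21 arrays Olig2 stayed between 4.83 and 6.95, also on parental replicate 1, where Fabp7 was high. There the oligodendrocyte sum was 1520, below the 3250, 5870 and 6060 of parental replicates 2, 3 and 4, so it went the other way. On SMB21 RAS replicates 1, 2 and 3 that sum was 6840, 776 and 1280. The astrocyte sum was 4230 on SMB21 parental replicate 1 and 3970 to 5050 on replicates 2 to 4. The Y-linked genes did not follow Fabp7 on every array. Kdm5d was high on both SMB56 parental arrays, and SMB21 RAS replicate 1, with Fabp7 at 10.41, had Kdm5d as low as the other SMB21 RAS arrays. Eif2s3y did differ between the SMB56 parental arrays as Fabp7 did, at 4.93 on replicate 1 and 9.23 on replicate 2. It was low (5.06) on SMB56 GF replicate 1, where Fabp7 was high. What part the identity of these cultures has in the Fabp7 values was not tested.

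**Figure D3:**
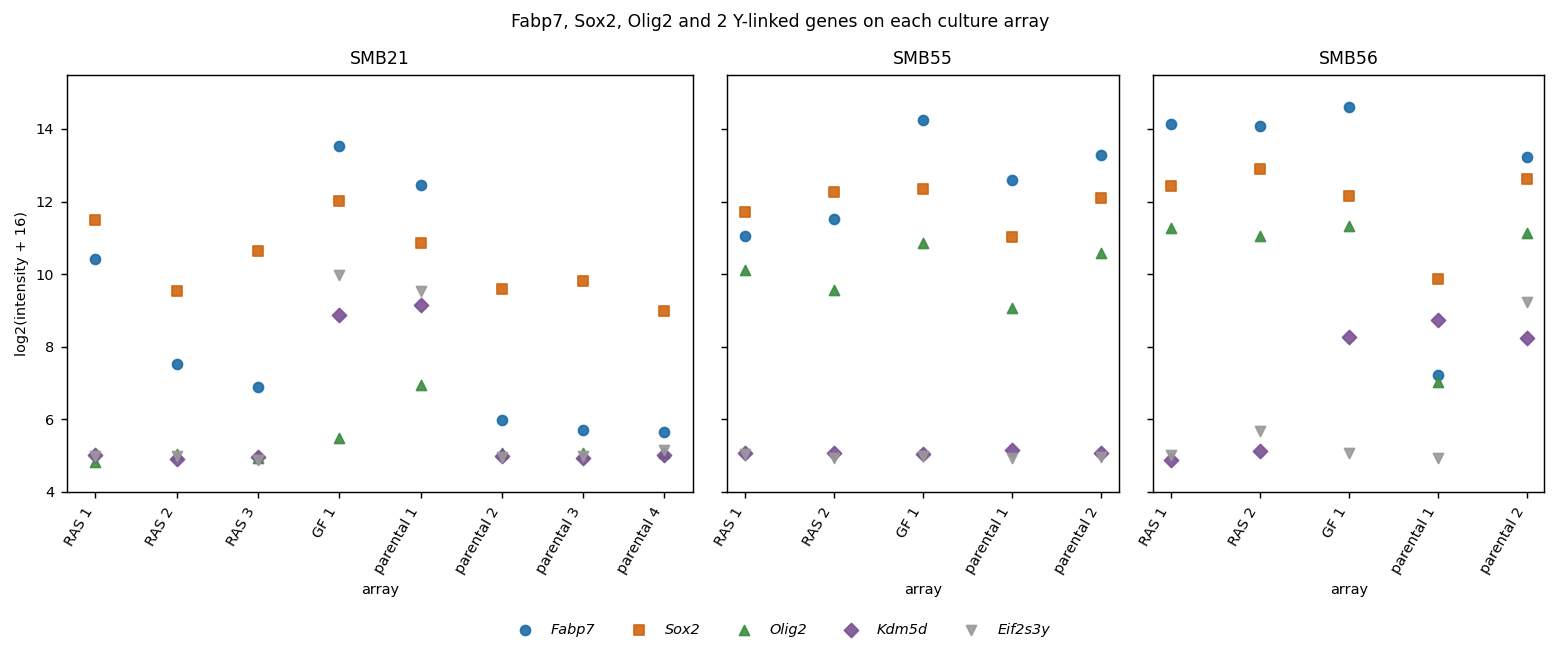
Levels of Fabp7, Sox2, Olig2 and the Y-linked genes Kdm5d and Eif2s3y, as log2(intensity + 16) on the vertical axis, on every culture array of the 3 lines, RAS and GF arrays to the left of parental ones. In SMB21 the parental array with high Fabp7 (12.46) is also the one with high Kdm5d (9.14) and Eif2s3y (9.54).

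Responses to RAS were next compared between lines. The difference itself was called for 0 of the 9 members at an adjusted p under 0.05 in limma's F test (3 at an unadjusted p under 0.05), where 3.45% of all genes were called. Hmga2 rose by 3.71 in SMB21 (SE 0.27), 5.70 in SMB55 (SE 0.36) and 4.49 in SMB56 (SE 0.36), each past the threshold, with an adjusted p of 0.0679 for the difference between lines. Nes rose by 0.97 in SMB21 (SE 0.25), 2.87 in SMB55 (SE 0.33) and 1.80 in SMB56 (SE 0.33), with an adjusted p of 0.0605 for that difference. Both genes passed it when SMB56 parental replicate 2 was left out (0.0200 for Hmga2 and 0.0359 for Nes). Vim rose by 2.49 in SMB21 (SE 0.28) and 1.53 in SMB55 (SE 0.37), and its difference of 1.21 in SMB56 (SE 0.37, adjusted p = 0.0576) did not pass. Msi1 fell by 1.58 in SMB21 (SE 0.31) and by 1.46 in SMB55 (SE 0.41), with a difference of -0.57 in SMB56 (adjusted p = 0.405). Prom1 fell by 3.05 in SMB55 (SE 0.74), with differences of -1.43 in SMB21 (adjusted p = 0.104) and -1.04 in SMB56 (adjusted p = 0.402). For the response to growth factors, with 1 GF array per line assumed to vary like the other groups, 0 of 9 members were called (3 at an unadjusted p under 0.05), against 1.40% of all genes.

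**Figure D4:**
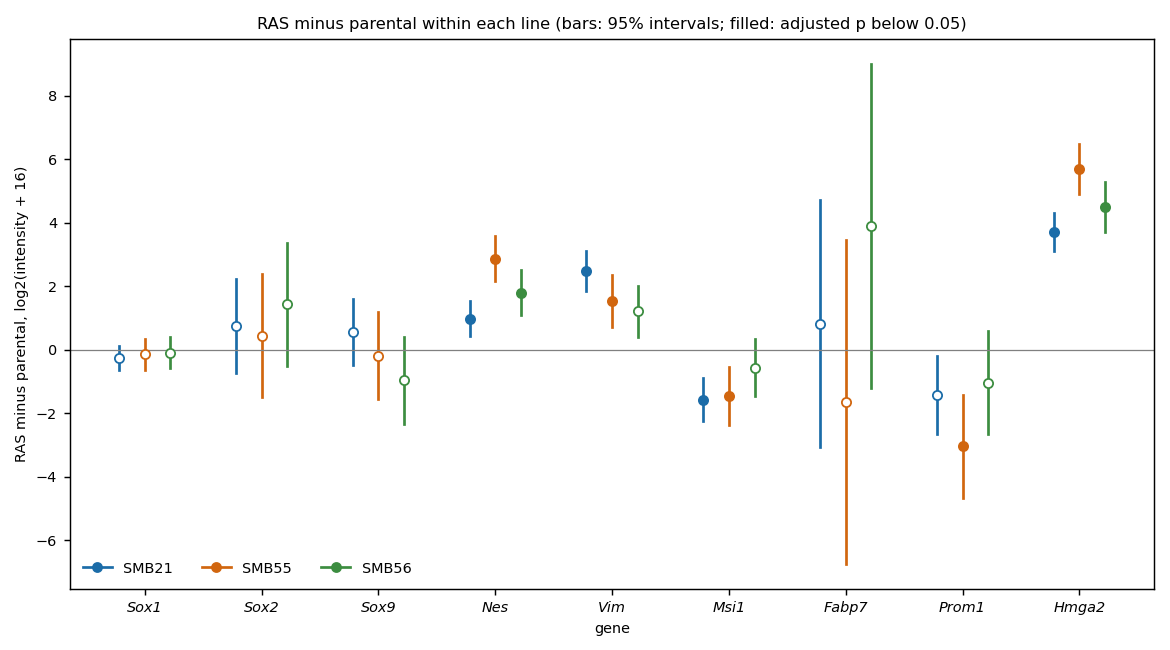
RAS minus parental difference on the log2(intensity + 16) scale (vertical axis) of each gene within SMB21, SMB55 and SMB56, with 95% confidence intervals; filled points passed an adjusted p under 0.05. Hmga2 and Nes are above 0 in all 3 lines, and the Fabp7 points lie on both sides of 0.

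Vim, Nes and Hmga2 are also made by mesenchymal cells, and Nes by endothelium. Of 7 fibroblast and meningeal markers 3 rose in RAS over parental cells (Foxc1, Col3a1 and Dcn) and 1 fell, in a comparison with 14.1% of all genes higher and 17.9% lower. Their summed intensity ran from 576 to 14400 on RAS arrays and from 315 to 504 on parental arrays. The high sums were in SMB21, at 4770, 5540 and 14400, with 1550 and 1390 in SMB55 and 895 and 576 in SMB56. Col3a1 read 11.63, 11.49 and 13.16 on SMB21 RAS arrays but 6.30 to 7.09 on those of SMB55 and SMB56, and Col1a1 read 5.36 to 6.91 on all culture arrays. The parental range of Col3a1 was 5.62 to 7.04. Within the lines, Vim rose by 2.49 in SMB21 and 1.53 in SMB55, with a difference of 1.21 in SMB56 that did not pass, while Hmga2 rose by 3.71, 5.70 and 4.49 and Nes by 0.97, 2.87 and 1.80 in SMB21, SMB55 and SMB56. The part of mesenchymal cells in these values was not tested. Of 8 endothelial markers 2 rose (Flt1 and Kdr) and none fell, against the same shares of all genes, with sums of 643 to 2350 on RAS arrays and 382 to 546 on parental arrays. Cdh5, the cadherin of endothelium, read 10.39 on SMB21 RAS replicate 3 and 10.36 on SMB21 GF replicate 1, and 5.17 to 5.31 on the RAS arrays of SMB55 and SMB56. The part of endothelial cells in the Nes values was not tested. Of 6 granule neuron precursor markers 5 fell in RAS cells, where 17.9% of all genes were lower, and their sum ran from 2390 to 12100 on RAS arrays against 15700 to 26100 on parental arrays.

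Related genes were read from lists drawn up beside the members. Of 14 other Sox factors measured, 2 were higher and 4 lower in RAS than in parental cells, where 14.1% of all genes were higher and 17.9% lower, and their median was -0.10, against -0.05 for all genes. Sox18, known from blood vessel development, fell by 3.63 (SE 0.51, adjusted p = 1.05e-04). Sox11, a factor of newborn neurons, fell by 1.11 (SE 0.19, adjusted p = 5.40e-04), and Sox12 and Sox21 fell by 0.60 and 0.79. Sox10, 1 of the 2 that were higher, rose by 1.90 (SE 0.68, adjusted p = 0.0436). Of 17 other neural stem and progenitor genes, 1 was higher and 8 lower, with a median of -0.73. Hes1, a repressor induced by Notch, rose by 1.64 (SE 0.23, adjusted p = 9.62e-05). Nfia and Nfib, factors that start gliogenesis, fell by 2.02 (SE 0.12, adjusted p = 1.46e-07) and 1.60 (SE 0.15, adjusted p = 3.62e-06). Bmi1, a Polycomb protein needed for stem cell self-renewal, fell by 0.81 (SE 0.12, adjusted p = 1.68e-04). Against the parental arrays other than replicate 1, these 17 genes had 1 higher and 6 lower, with a median of -0.29. In that comparison 10.4% of all genes were higher and 13.1% lower. Between primary MB and P6 cerebellum this list had 4 higher and 6 lower, where 4.30% of all genes were higher and 6.68% lower, with Lhx2, a homeobox factor of the forebrain, up by 3.54 (SE 0.37, adjusted p = 0.00170), while Hopx fell by 3.46 and the glial glutamate transporter Slc1a3 by 2.44.

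Of the filament genes around Nes and Vim, 9 were measured, and 3 were higher and 1 lower in RAS than in parental cells, where 14.1% of all genes were higher and 17.9% lower. Lmna, which encodes the nuclear lamins A and C, rose by 2.22 (SE 0.40, adjusted p = 7.23e-04). Plec, a linker of filaments to other cell structures, rose by 2.34 (SE 0.46, adjusted p = 0.00132), and the neurofilament gene Nefm by 1.55 (SE 0.49, adjusted p = 0.0238). Ina, which encodes the neuronal filament internexin, fell by 2.66 (SE 0.33, adjusted p = 4.40e-05). The genes around Hmga2 and let-7 had 6 measured members of 10 listed, of which 2 were higher and 1 lower in RAS cells, against the same shares of all genes. Cdkn2a, the cell cycle inhibitor locus that Hmga2 is known to repress in young neural stem cells, rose by 1.10 (SE 0.15, adjusted p = 1.04e-04). Igf2bp3, an RNA-binding protein and let-7 target, rose by 1.45 (SE 0.44, adjusted p = 0.0215), and Dicer1, which cuts microRNAs from their precursors, fell by 0.48 (SE 0.12, adjusted p = 0.00843).

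Genes of most like pattern were found by Pearson's correlation of the means of the 12 groups, which share lines and so are not independent. For Hmga2 they were Actn4 (0.97), Itga8 (0.96) and Tpst2 (0.96). Nes was closest to Prep (0.96), Hes1 (0.94) and Smtn (0.94), and Vim to Anxa2 (0.95), Elovl1 (0.93) and Dap (0.92). Msi1 was closest to Gap43 (0.90), Reln (0.89) and Sfrp1 (0.89), and Prom1 to Hes6 (0.90), Gstm5 (0.88) and Prkci (0.86). Fabp7 was closest to Cfl2 (0.92), Ptprz1 (0.90) and Ywhaq (0.89), and Sox2 to Tdrd7 (0.91), Pmp22 (0.90) and Ptp4a3 (0.89).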

How the data were processed

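Total RNA of 24 samples was biotin labelled and hybridized to Affymetrix arrays, per the labels' protocols. The authors deposited 1 linear intensity per probe set and array; the summarisation and the normalisation are not given in the sources used here. Of 22690 probe sets, 20393 have 1 gene symbol in the platform annotation, 691 several and 1606 none, and probe sets with 1 symbol gave 12394 genes. The precision is limited by the number of arrays.

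Values were log2 transformed after adding 16, and fold changes are on that scale, which understates changes of dim genes. Linear models (limma 3.58.1, R 4.3.3) with moderated variances gave two-sided p-values. These were adjusted by Benjamini-Hochberg over 12394 genes and called under 0.05. The fits were tested on simulated data. That simulation had independent noise and no differences between lines, so it does not cover arrays that share a line or culture. Tissues were fitted as 4 groups, with 1 mean per parental line; the adult cerebellum is 1 array and was described only. Cultures were fitted on 18 arrays with treatment and line as terms, so p-values hold for these 3 lines. A fit with a mean for each line and treatment tested differences between lines. All members are named, with up to 4 called genes of smallest p per list and the 3 genes of most like pattern. The members and lists were chosen with earlier results of these data known.

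GF arrays, all numbered 1, correlated with parental replicate 1 of their line at 0.216, 0.339 and 0.104, each above 0.1. These are deviations from treatment means, so they include the line. Parental replicate 2 reached 0.273 in SMB21 and 0.110 in SMB56. The main fits did not pair arrays by number, which entered only alternative settings. RAS and parental arrays of the same number correlated at -0.154 to -0.0201, as deviations from means of line and treatment. In SMB55 and SMB56, with 2 arrays per group, that measure gives both pairs the same value. Tumors and P6 cerebella correlated at -0.0282 and 0.00498, as deviations from group means. These measures differ from that of the GF arrays, which keeps the line, so they cannot decide which arrays pair. Alternatives were other pseudocounts (1 and 64), median centring, a filter on dim genes, other or averaged probe sets, another variance prior, other groupings, the replicate block and leaving out samples. Motifs were searched in RefSeq promoters, found for 7 of the 9 members.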

Additional observations from a re-analysis of the deposited data

Results flagged for a closer look

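On SMB21 parental replicate 1, 3 members lay far from the other 3 SMB21 parental arrays. Fabp7 read 12.46, with 5.66 to 5.99 on the others. Sox1 read 7.54, with 6.84 to 6.91 on the others. Prom1 read 10.89, with 11.44 to 11.48 on the others. The Y-linked genes of this array also differ from the other 3. The check was made only in groups of 4 arrays, so SMB21 parental was the only group checked. Smaller groups, such as SMB56 parental, were not checked. For a given gene, chance flags about 5 percent of groups in such a check. The share of all genes flagged on this array was not computed. Over all genes it correlated at 0.969 to 0.971 with the other SMB21 parental arrays, which correlated at 0.992 to 0.996 among themselves. The 3 flags are therefore not shown to be particular to the members.

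In 2 cases every array of a line moved one way and every array of another line the opposite way. Fabp7 in RAS against parental cells was higher in SMB56 and lower in SMB55, and the test of a difference between lines gave an adjusted p of 0.558. Prom1 in GF against parental cells was higher in SMB55 and lower in SMB56, with an adjusted p of 0.264 for that test. Neither test passed, and the GF case rests on 1 GF array per line. The share of all genes with such opposite moves was not computed, so the 2 cases have no background to be set against.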

How the results depend on the processing

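Hmga2 kept its calls in RAS against parental cells (differences of 3.98 to 5.21 over 33 alternatives) and against GF cells (2.95 to 3.69 over 32). Of 1398 differences of members recomputed under alternatives, 52 had another sign, 1 of them called in either fit: Msi1 in GF minus parental was 0.02 with its second, dim probe set. Counts below are members called of 9, and the cause of each change was not tested.

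Leaving out 1 sample or 1 line gave 0 to 3 calls for primary MB minus P6 cerebellum (2 with all samples), 0 to 3 for parental SMB minus P6 cerebellum (2), 0 to 2 for parental SMB minus primary MB (2), 0 to 3 for GF minus parental (2), 3 to 5 for RAS minus parental (5), 1 to 2 for RAS minus GF (1), 0 to 2 for a difference between parental lines (1), 0 to 2 for a RAS response that differs by line (0) and 0 for a GF response that differs by line (0). At each count of 0 in limma, 1 to 4 members had an unadjusted p under 0.05. Other changes were these. Primary MB minus P6 cerebellum had 3 calls with only the groups compared, 1 without the dimmest genes and 0 with the line as a random block (2 at an unadjusted p under 0.05). Parental SMB minus P6 cerebellum had 4 with the mean of all probe sets, 1 with the random block and 1 without parental replicate 1. Parental SMB minus primary MB had 1 with only the groups compared. GF minus parental had 4 with only the groups compared, 1 with parental replicate 1 apart and 0 with 1 mean per line and treatment (5 at an unadjusted p under 0.05). RAS minus parental had 1 with these means, and the RAS response by line had 1 with a pseudocount of 64 (Hmga2, adjusted p = 0.0295). The settings without parental replicate 1, or with it apart, were chosen after seeing the data.

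With the replicate number as a block, 2 members were called in primary MB minus P6 cerebellum, 2 in GF minus parental, 4 in RAS minus parental (Prom1 had an adjusted p of 0.0918) and 1 in RAS minus GF. By the labels these arrays share only a number. The pairing of GF arrays with parental replicate 1 rests on correlations that parental replicate 2 exceeded in SMB21 and SMB56. Calls over all genes were 415 with this block, against 1361 without it, for primary MB minus P6 cerebellum, and 161, against 1383, for RAS minus GF.

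Calls over all genes moved by more than 1.5 times elsewhere. With 1 mean per line and treatment they were 19 for GF minus parental, 667 for RAS minus parental and 53 for RAS minus GF, against 1109, 3974 and 1383. With only the groups compared they were 1686, against 2553, for parental SMB minus primary MB and 898, against 1383, for RAS minus GF. With the random block they were 896, against 1361, for primary MB minus P6 cerebellum. Leave-outs past that size ran from 341 to 774 for primary MB minus P6 cerebellum, 970 to 981 for parental SMB minus P6 cerebellum, 1574 to 1686 for parental SMB minus primary MB, 200 to 618 for GF minus parental and 222 to 769 for RAS minus GF, and RAS minus parental had 2548 without SMB55. For the tests between lines they ran from 228 to 1280 in parental cells, 190 to 1230 for RAS and 65 to 339 for GF. Signal near background limits Sox1 and the second Msi1 probe set, and the 2 P6 arrays and 1 GF array per line limit the rest.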

Other observations

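Nras, the 1 RAS gene among the genes measured here, read 10.50 to 11.93 on RAS arrays, 11.52 to 11.72 on GF arrays and 11.30 to 12.36 on parental arrays. The gap junction gene Gja1, listed among the astrocyte markers, rose by 4.89 in RAS over parental cells (SE 0.52, limma adjusted p = 1.27e-05) and by 4.31 over GF cells (SE 0.70, adjusted p = 0.00258). It read 10.04 to 11.91 on RAS arrays, 5.66 to 7.84 on GF arrays and 5.16 to 8.65 on parental arrays, while Aqp4 of the same list read 4.98 to 5.10 on RAS arrays. Among GF arrays Atoh1 read 11.19 in SMB55, against 6.28 in SMB21 and 6.47 in SMB56, and Msi1 was likewise highest in SMB55, at 9.68, against 7.74 and 8.34.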
